A study of Homo sapiens with 2 samples.

Results

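A group of 10 Notch pathway genes was followed in T24/R bladder cancer cells: the receptors NOTCH1, NOTCH2 and NOTCH3, the ligands JAG1 and JAG2, the nuclear factors RBPJ, MAML1 and MAML2, and the target genes HES1 and HEY1. They were taken by symbol from a list that was chosen with earlier results of these data known. All 10 were found among the 58884 Ensembl gene IDs counted in each library. T24/R is an adherent human line from the urinary bladder, whose name ties it to the urothelial carcinoma line T24. Cells received 1600 nM THZ1 for 6 h or the solvent DMSO, which served as the control. THZ1 binds CDK7, the kinase of the transcription factor TFIIH, covalently, and also acts on CDK12 and CDK13. Polyadenylated RNA was sequenced from 1 library per group, so the differences have no replicate check and carry no p-value.

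Notch signalling passes from cell to cell by contact. A Jagged or Delta ligand on one cell pulls on a Notch receptor of its neighbour, the metalloprotease ADAM10 and then the gamma-secretase complex cut the receptor, and the freed intracellular domain moves to the nucleus. There it binds the DNA-binding protein RBPJ, which otherwise holds target genes silent with corepressors such as SPEN, and a Mastermind-like protein (MAML) joins to bring in the acetyltransferases EP300 and CREBBP. HES1 and HEY1, both basic helix-loop-helix repressors, are the target genes most used as readouts. In the urothelium the pathway has been described as a tumour suppressor in some settings and as a promoter of growth in others.

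RefSeq promoter windows (GRCh38.p14) were searched for 9 of the 10 genes, HEY1 not among them. Sequences are shown for the 2 genes with a window that holds the core of the RBPJ binding motif. The target gene HES1 can thus be seen beside the gene of the factor itself. Each window covers the 250 bases before an annotated start, is written 5′ to 3′ on the gene's strand, and has each TGGGAA, or its reverse complement TTCCCA, in capitals. HES1 lies on the plus strand, at chr3:194135898-194136147, and the RBPJ window shown, the second of 5 for that gene, lies on the plus strand at chr4:26319496-26319745.
HES1: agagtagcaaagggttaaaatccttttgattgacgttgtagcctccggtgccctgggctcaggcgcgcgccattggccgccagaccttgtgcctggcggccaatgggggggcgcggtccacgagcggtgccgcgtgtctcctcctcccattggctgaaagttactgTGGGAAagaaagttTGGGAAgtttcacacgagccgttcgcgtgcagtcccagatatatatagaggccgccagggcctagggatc
RBPJ: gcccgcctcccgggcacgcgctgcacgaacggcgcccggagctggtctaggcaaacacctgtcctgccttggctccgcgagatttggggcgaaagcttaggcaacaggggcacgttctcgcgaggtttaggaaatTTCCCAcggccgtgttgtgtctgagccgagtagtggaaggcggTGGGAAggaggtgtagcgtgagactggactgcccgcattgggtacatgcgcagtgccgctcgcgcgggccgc

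Both HES1 matches stood on the gene's own strand, starting 84 and 70 bases before the start site. In the RBPJ window shown the matches began 115 and 72 bases before the start and faced opposite strands. None of the other RBPJ windows held a match. A count of 2 or more matches on either strand was reached by 2.90% of all 35116 RefSeq windows of this length, and 1 or more by 20.8%. The HES1 window also held 3 matches to CACNAG, the N box through which HES1 protein represses its own gene, a number reached by 0.911% of windows. It further held 3 matches to CCAAT (2.93% of windows) and a TATATA run beginning 31 bases before the start in which 2 matches overlap. No TGGGAA was found in the windows of NOTCH1, NOTCH2, NOTCH3, JAG1, JAG2, MAML1 or MAML2, which says only that these letters are not in these windows. A letter match is a description and not a binding site.

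The THZ1 library held 18313827 counts over 23528 genes and the DMSO library 18445831 counts over 23986 genes. Of 11 urothelial marker genes, UPK1B, UPK3A and KRT20 had 0 counts in both libraries, and the summed level of the 11 was 5.10 counts per 1000000 (CPM) in THZ1 and 10.8 CPM in DMSO. FOXA1 (21 and 129 counts) made most of that gap, and without it the sums were 3.78 CPM in THZ1 and 4.75 CPM in DMSO; it was singled out after the values were seen. The 6 epithelial markers summed to 38.9 CPM in THZ1 and 37.3 CPM in DMSO. Most of this came from the keratin genes KRT18 (494 and 696 counts) and KRT8 (100 and 77 counts). The epithelial adhesion genes EPCAM (3 and 0 counts) and CDH1 (3 and 2 counts) were near 0, as was KRT19 (1 and 1), and KRT7 had 17 and 18 counts. The mesenchymal markers VIM, CDH2 and FN1 summed to 6206 CPM in THZ1 and 3687 CPM in DMSO. Markers of the labelled tissue were thus low beside the mesenchymal ones in both libraries. The 5 fibroblast markers, LUM (69 and 34 counts) among them, summed to 6.49 CPM in THZ1 and 3.71 CPM in DMSO. Summed immune markers reached 0.063 CPM in THZ1 and 0.235 CPM in DMSO. The part of these differences in the Notch results was not tested.

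Levels between libraries are given as CPM scaled by TMM (trimmed mean of M values), which sets the bulk of the genes equal. Ratios are log2 of THZ1 over DMSO with 0.5 added to each count, and their 95% intervals are exact and cover counting error only. Genes with at least 30 counts in either library were tested. A call of lower or higher required a change of 2-fold or more together with an interval that excluded 1. In bulk RNA, fewer cells that express a gene and less RNA per cell cannot be told apart.

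Of the 10 genes, 8 had enough counts, each of them in both libraries. JAG1, MAML2, NOTCH1 and MAML1 were lower after THZ1 by 2.36-fold to 3.14-fold, and NOTCH2, JAG2 and RBPJ differed by less than 2-fold. HES1 stood apart at 1.94-fold higher, just short of the 2-fold limit. The count of 4 lower of 8 is set against 23.6% lower among all 12457 tested genes, and the count of 0 higher against 7.51% higher. The median log2 ratio was −0.95 for the 8 genes and −0.13 for all tested genes.

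These counts move with the scale for the Notch genes and for all genes alike. With TMM computed from the tested genes alone, 4 Notch genes were lower beside 21.3% of all genes and 1 was higher (HES1) beside 9.70%. With total counts 5 were lower beside 34.2% and 0 higher beside 2.95%. Against the mitochondrially encoded mRNAs 7 were lower beside 80.3% and 0 higher beside 0.706%, and with the upper quartile 1 was lower (JAG1) beside 14.1% and 1 higher (HES1) beside 24.4%. Differences between 2 genes of the same libraries do not depend on the scale and are given for that reason below.

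**Figure D1:**
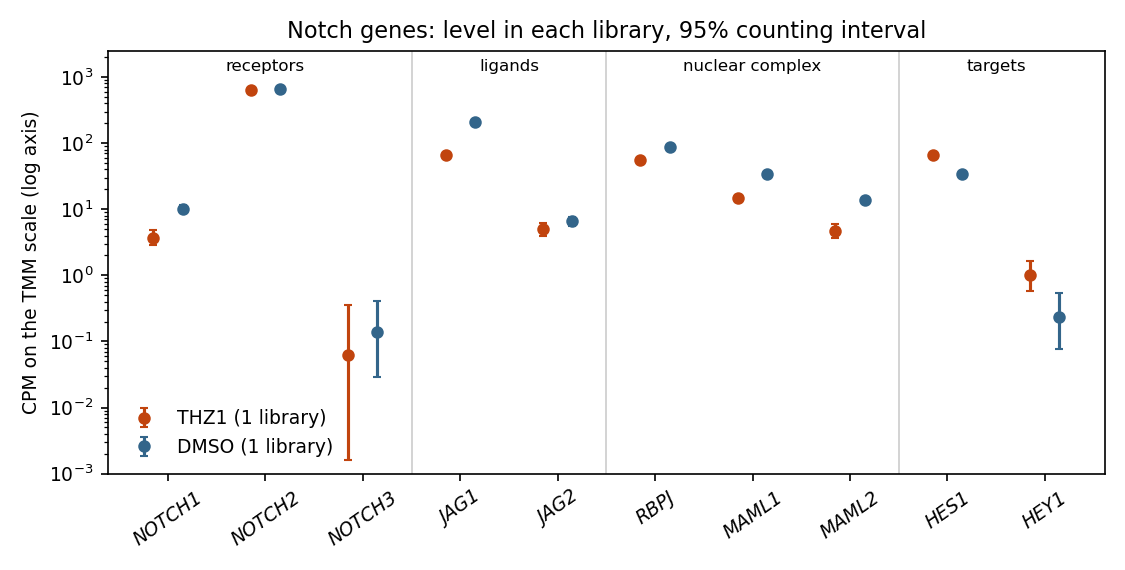
Level of each Notch gene in CPM on the TMM scale (log axis) in the THZ1 library and the DMSO library, with 1 point per library and a bar for the 95% counting interval. NOTCH2 lies near 638 and 661 CPM, HES1 and HEY1 are the genes with the THZ1 point above the DMSO point, and NOTCH3 is at or under 3 counts in both libraries.

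Among the receptors, NOTCH2 dominated. It had 10121 counts (638 CPM) in THZ1 and 14066 counts (661 CPM) in DMSO, a log2 ratio of −0.05 (−0.09 to −0.02). The libraries thus held nearly the same level on this scale, and the sign of so small a ratio turned to 0.05 when TMM was computed from the tested genes alone.

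NOTCH1, the receptor best known from T-cell leukaemia, was far less abundant and was lower after THZ1, with 59 counts (3.72 CPM) in THZ1 and 217 counts (10.2 CPM) in DMSO. Its log2 ratio was −1.45 (−1.90 to −1.03), or 2.73-fold lower. NOTCH3 had 1 count in THZ1 and 3 in DMSO, at or under the floor of 3 counts (0.189 CPM in THZ1 and 0.141 CPM in DMSO). No fold is given, and a fall or a modest rise could not have been detected at this depth.

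NOTCH2 made up 99.4% of the counts of the 3 receptors in THZ1 (exact interval 99.2% to 99.6%) and 98.5% in DMSO (98.2% to 98.7%). This share does not depend on how the libraries are scaled. Per base of exon it was 99.0% in THZ1 and 97.5% in DMSO. NOTCH2 has near-identical partial copies, the NOTCH2NL genes, which can take or lend reads. The 4 of them held 55 counts together in THZ1 and 123 in DMSO, beside the 10121 and 14066 counts assigned to NOTCH2. NOTCH1 (ENSG00000148400) spans chromosome 9 from 136494433 to 136545786 and NOTCH2 (ENSG00000134250) chromosome 1 from 119911553 to 120069626 on GRCh38.

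JAG1, the ligand that is mutated in Alagille syndrome, had the lowest ratio of the group. It fell to 1060 counts (66.8 CPM) in THZ1, against 4468 counts (210 CPM) in DMSO. The log2 ratio was −1.65 (−1.75 to −1.56), or 3.14-fold lower, which placed JAG1 at percentile 12.6 of all tested genes ranked from the lowest ratio up. The gene (ENSG00000101384) lies on chromosome 20 from 10637684 to 10673999.

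JAG2, the second Jagged ligand, was sparse. It had 79 counts (4.98 CPM) in THZ1 and 139 counts (6.53 CPM) in DMSO, and its log2 ratio of −0.39 (−0.81 to 0.02) had an interval that included no change. An annotated noncoding gene shares 469 exonic bases with JAG2 on the same strand and had 0 counts in both libraries, and reads from the shared bases may have been left uncounted.

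JAG1 and JAG2 did not move by the same amount. The JAG1 minus JAG2 difference of log2 ratios, which no scaling alters, was −1.26 (−1.68 to −0.83). JAG1 accounted for 93.1% of Jagged counts in THZ1 (91.4% to 94.5%) and 97.0% in DMSO (96.4% to 97.5%), so it remained the main Jagged transcript. JAG2 (ENSG00000184916) lies on chromosome 14 from 105140981 to 105168824.

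In the nuclear complex, RBPJ had 889 counts (56.0 CPM) in THZ1 and 1880 counts (88.3 CPM) in DMSO. Its log2 ratio of −0.66 (−0.77 to −0.54) was within 2-fold, and became −1.07, lower by the rule, with total counts as the scale. The 4 annotated RBPJ pseudogenes had 0 counts in both libraries.

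Both Mastermind-like coactivators of the group were lower. MAML1 had 231 counts (14.6 CPM) in THZ1 and 733 counts (34.4 CPM) in DMSO, a log2 ratio of −1.24 (−1.46 to −1.03). MAML2, known from the gene fusions of mucoepidermoid carcinoma, had 75 counts (4.72 CPM) in THZ1 and 293 counts (13.8 CPM) in DMSO, a log2 ratio of −1.54 (−1.93 to −1.17). The difference between them, MAML1 minus MAML2, was 0.30 (−0.13 to 0.74), within counting error.

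MAML3, the remaining Mastermind-like gene, is not in the group of 10. It had 217 counts (13.7 CPM) in THZ1 and 385 counts (18.1 CPM) in DMSO, a log2 ratio of −0.40 (−0.65 to −0.16), within 2-fold. MAML1 accordingly made up 44.2% of the counts of the 3 Mastermind-like genes in THZ1 (39.9% to 48.5%) and 51.9% in DMSO (49.3% to 54.6%). RBPJ (ENSG00000168214) spans chromosome 4 from 26163455 to 26435131, MAML1 (ENSG00000161021) chromosome 5 from 179732850 to 179777286 and MAML2 (ENSG00000184384) chromosome 11 from 95976598 to 96343180. MAML2 shares 549 exonic bases with an annotated lincRNA on the other strand that had 2 counts in THZ1 and 1 in DMSO, and no strand setting is given.

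HES1, the target gene whose promoter is printed above, had 1045 counts (65.8 CPM) in THZ1 and 721 counts (33.9 CPM) in DMSO. The THZ1 library was thus the higher one in raw counts as well, although its total was slightly smaller. The log2 ratio was 0.96 (0.82 to 1.10), at percentile 91.7 of all tested genes. It was 1.06, and higher by the rule, when TMM was computed from the tested genes alone and 1.02 with protein-coding genes alone. With total counts it was 0.55, and against the 13 mitochondrially encoded mRNAs it was −0.63, so its direction depends on the scale.

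What no scale alters is the distance of HES1 from the rest of the group. Each of the other 7 tested genes had a lower ratio than HES1, with a counting interval that excluded equality in all 7 pairs. The gap was smallest for NOTCH2, where NOTCH2 minus HES1 was −1.01 (−1.15 to −0.87). It was widest for JAG1, where JAG1 minus HES1 was −2.61 (−2.78 to −2.44). HES1 (ENSG00000114315) is a short gene of 2588 bases on chromosome 3 from 194136145 to 194138732.

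HEY1, the other target gene of the group, had 16 counts in THZ1 and 5 in DMSO, too few to be tested. Its log2 ratio was 2.01, with a wide counting interval of 0.59 to 3.90. The THZ1 count was the higher one, and the ratio was 0.42 against the mitochondrially encoded mRNAs.

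**Figure D2:**
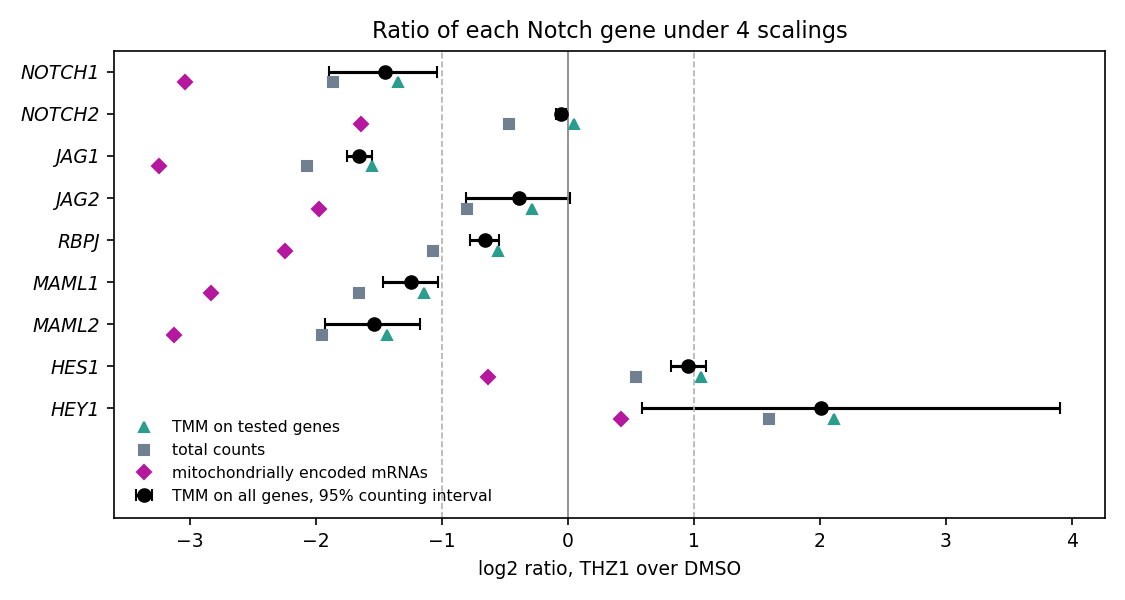
Log2 ratio of THZ1 over DMSO for each Notch gene with more than 3 counts in a library, with the 95% counting interval for TMM on all genes and the values under other scalings as coloured symbols. Dashed lines mark 2-fold. HES1 and HEY1 lie to the right of the other genes under each scaling drawn, and JAG1 is at −1.65 on the main scale.

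All pairs of the 8 tested genes were compared in the same scale-free way. Of 28 pairs, 21 had a counting interval that excluded equal ratios and 7 did not. Among the 4 genes called lower, the interval excluded equality in 1 of 6 pairs, at −0.41 (−0.65 to −0.17) for JAG1 minus MAML1. JAG2 could not be separated from NOTCH2 (NOTCH2 minus JAG2 0.34, −0.07 to 0.76) or from RBPJ (JAG2 minus RBPJ 0.27, −0.17 to 0.69). The spread between cultures is not measured, so true uncertainty is wider than these intervals.

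**Figure D3:**
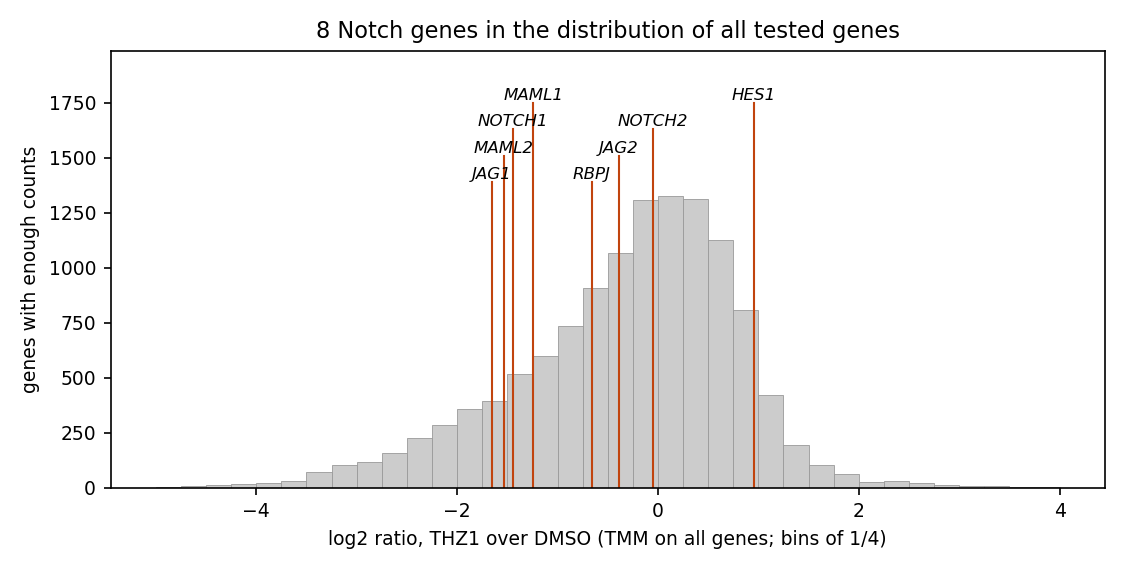
Number of tested genes in bins of log2 ratio of THZ1 over DMSO, between −5 and 4, with a line for each of the 8 tested Notch genes. JAG1, MAML2, NOTCH1 and MAML1 stand together on the lower flank between −1.65 and −1.24, NOTCH2 stands in the middle of the distribution and HES1 on its upper flank at 0.96.

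Levels of different genes were compared per base of exon, as transcripts per 1000000 (TPM) within each library. In THZ1 the order began with NOTCH2 at 84.6 TPM (83.0 to 86.3) and HES1 at 71.2 TPM (67.0 to 75.7), then JAG1 at 16.0 TPM (15.1 to 17.0) and RBPJ at 13.5 TPM (12.6 to 14.4). In DMSO it began with NOTCH2 at 160 TPM (157 to 162), then JAG1 at 91.7 TPM (89.0 to 94.4), HES1 at 66.7 TPM (61.9 to 71.8) and RBPJ at 38.8 TPM (37.0 to 40.6). HES1 thus stood above JAG1 in THZ1 and below it in DMSO, and the counting intervals of these neighbours did not overlap in either library.

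MAML1 followed RBPJ in both libraries, at 5.46 TPM in THZ1 and 23.5 TPM in DMSO. In THZ1 the intervals of JAG2 (1.74 TPM) and MAML2 (1.48 TPM) overlapped, as did those of NOTCH1 (0.799 TPM) and HEY1 (0.696 TPM). In DMSO overlap was seen between JAG2 (4.15 TPM) and NOTCH1 (3.99 TPM) and between HEY1 (0.295 TPM) and NOTCH3 (0.061 TPM). NOTCH3 was last in both, at 0.015 TPM in THZ1. With the longest transcript as the length in place of the union of exons, the ranks of the first 7 genes were the same in each library.

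The rest of the pathway was described with a list of 60 further genes, of which 44 had enough counts. Of these, 10 (22.7%) were lower, 1 was higher and 33 were neither. Over all tested genes 23.6% were lower, near the share here, and 7.51% were higher. The median log2 ratio of the 44 genes was −0.20. DTX2 and the genes within 2-fold named below, apart from ligands, receptors and HES or HEY genes, were chosen after their values were seen.

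Among 6 further coactivator genes, the rule called 2 lower and 1 higher and left 3 uncalled; over all tested genes it called 23.6% lower and 7.51% higher. The lower genes were the acetyltransferases that Mastermind-like proteins recruit. EP300 had 528 counts in THZ1 and 3359 in DMSO, a log2 ratio of −2.25 (−2.38 to −2.11). Its paralogue CREBBP had 316 counts in THZ1 and 1898 in DMSO, a log2 ratio of −2.16 (−2.34 to −1.99). KAT2B, the acetyltransferase PCAF, went the other way, with 2967 counts in THZ1 and 1916 in DMSO and a log2 ratio of 1.05 (0.97 to 1.14), which was 0.64 with total counts and −0.53 against the mitochondrially encoded mRNAs.

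Among 13 corepressor genes, 5 were called lower and 0 higher, with 8 uncalled, against the same 23.6% and 7.51% over all tested genes. TLE3, a Groucho-type partner of HES proteins, was the lowest, with 50 counts in THZ1 and 455 in DMSO and a log2 ratio of −2.75 (−3.21 to −2.34). SPEN, which binds RBPJ, had 413 counts in THZ1 and 2721 in DMSO and a log2 ratio of −2.30 (−2.45 to −2.15). TLE4 (−1.85) and TLE1 (−1.27) were also lower. The corepressor gene NCOR1 had a log2 ratio of 0.05 (−0.01 to 0.11) and the deacetylase gene HDAC1 one of 0.37.

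The machinery that cuts the receptor was within 2-fold for all 8 genes tested. By the rule, 8579 of all 12457 tested genes were likewise neither lower nor higher. ADAM10 had a log2 ratio of 0.63 (0.58 to 0.69) and the gamma-secretase subunit gene NCSTN one of 0.62 (0.52 to 0.73). POFUT1, which adds fucose to the receptor, was at 0.16. With total counts 1 of these cleavage genes, PSENEN, was lower by the rule.

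Genes that tag or sort ligands and receptors were mixed. NUMBL was lower, with 78 counts in THZ1 and 464 in DMSO and a log2 ratio of −2.14 (−2.51 to −1.80), while its paralogue NUMB, an inhibitor of Notch, had a ratio of 0.49 (0.42 to 0.56). DTX2, a Deltex ubiquitin ligase gene, was lower on few counts (4 in THZ1 and 47 in DMSO; −2.98, −5.07 to −1.68). MIB1, the ubiquitin ligase that lets ligands be endocytosed, had a ratio of 0.58 (0.53 to 0.63).

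CDK8, a Mediator kinase that phosphorylates the Notch intracellular domain ahead of its destruction, was lower, with 89 counts in THZ1 and 408 in DMSO and a log2 ratio of −1.77 (−2.12 to −1.44). Its paralogue CDK19 had a ratio of 0.93 (0.74 to 1.13) and their cyclin gene CCNC one of 0.72. FBXW7, the ubiquitin ligase subunit that recognises the phosphorylated domain, was at −0.23.

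The remaining ligands, receptors and targets were near the limit of detection. DLL1 had 9 counts in THZ1 and 28 in DMSO, DLL3 had 10 and 9, DLL4 had 2 and 1, and NOTCH4 had 7 and 6. Among the target genes, HES4 (25 and 30 counts), HES7 (14 and 35) and NRARP (25 and 38) could be tested, and each was within 2-fold. HES5 (6 and 15), HES6 (23 and 29) and HEY2 (2 and 6) could not, and HES2 and HEYL had 0 counts in both libraries. HES1 was thus the one HES or HEY gene with more than 100 counts in a library, and no other target gene gives a comparably precise value.

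**Figure D4:**
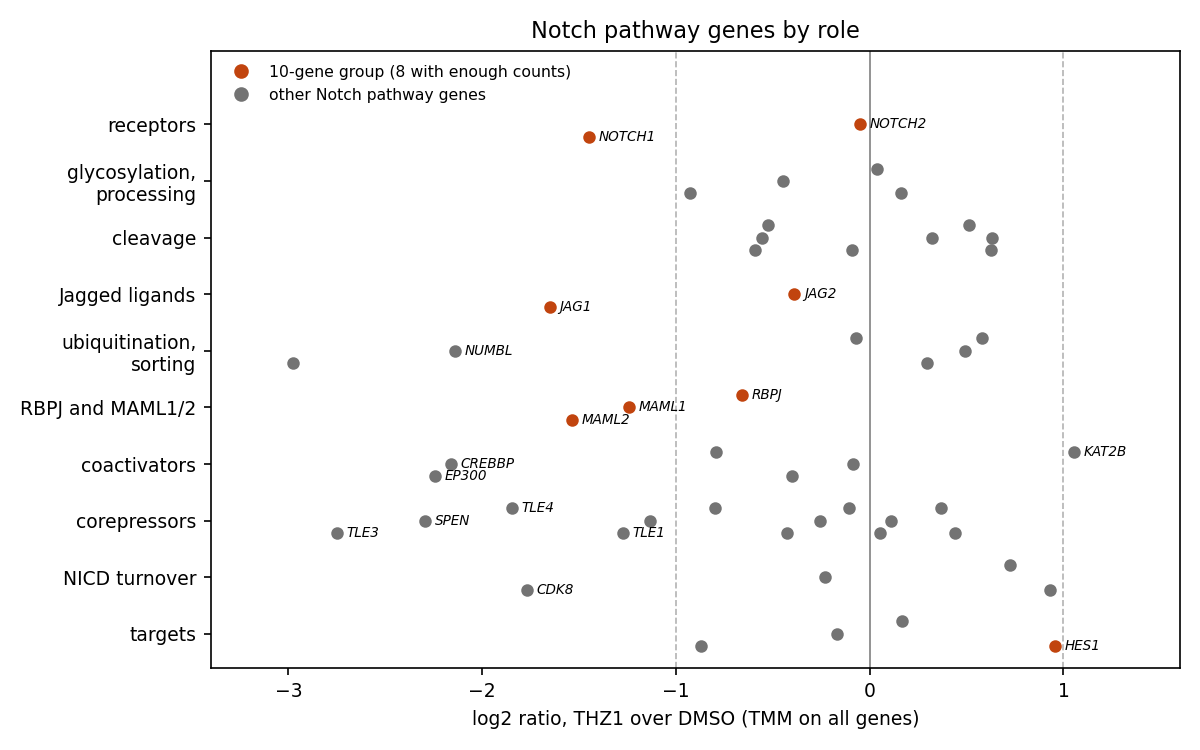
Log2 ratio of THZ1 over DMSO for each tested Notch pathway gene, in rows by role, with the genes of the 10-gene group in colour and the others in grey. Dashed lines mark 2-fold. All 8 cleavage genes lie between the dashed lines, while TLE3 at −2.75, SPEN at −2.30 and EP300 at −2.25 lie far to the left of them.

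Gene structure differed widely within the group. HES1 spans 2588 bases with at most 3 introns in an annotated transcript, whereas MAML2 spans 366583 bases with at most 4 introns, RBPJ 271677 bases with 11 and NOTCH2 158074 bases with 33. When tested genes were split by span into 5 bins of equal size, HES1 fell in the shortest bin (up to 8790 bases). In that bin 16.3% of genes were higher and 24.99% lower. In the other bins 4.22% to 5.91% were higher and 16.9% to 29.5% lower. The part of gene span in the HES1 value was not tested.

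NOTCH2, RBPJ and MAML2 all fell in the longest bin, where 16.9% of genes were lower, and their log2 ratios were −0.05, −0.66 and −1.54. JAG1 and JAG2 fell in the middle bin (25.1% lower), at −1.65 and −0.39. NOTCH1 and MAML1 fell in the bin above it (21.6% lower), at −1.45 and −1.24.

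**Figure D5:**
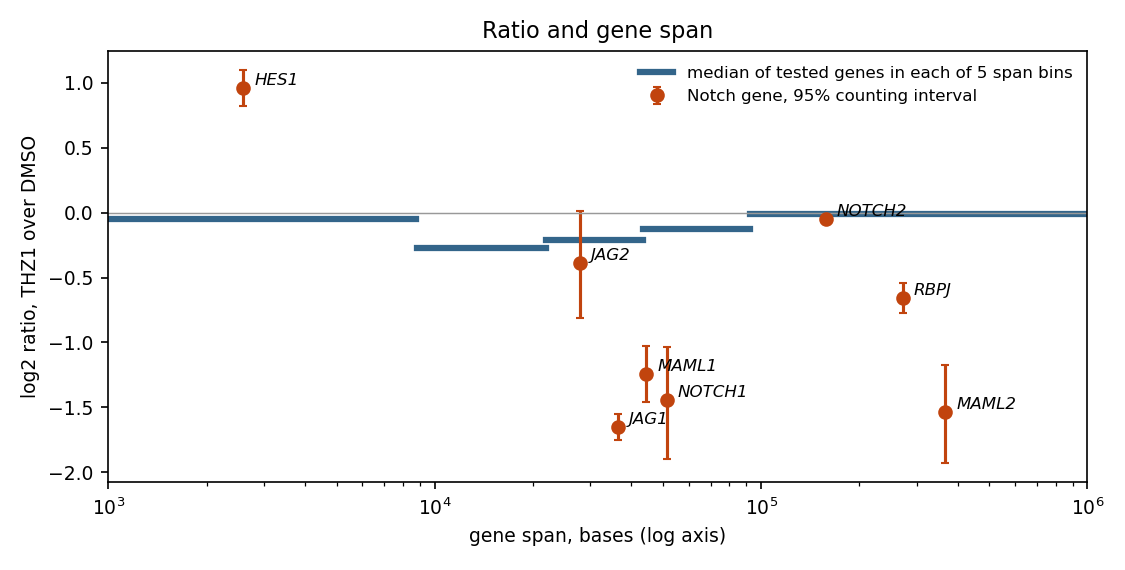
Log2 ratio of THZ1 over DMSO against gene span in bases (log axis) for the 8 tested Notch genes, with 95% counting intervals and bars for the median ratio of all tested genes in each of 5 span bins, drawn between 1000 and 1000000 bases. The medians lie between −0.28 and −0.01, HES1 is the short gene at the upper left and the 3 longest genes lie at −0.05, −0.66 and −1.54.

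The ATTTA pentamer, the core of elements that shorten the life of many mRNAs, was counted in the 3′ untranslated region of 1 coding transcript per gene. MAML2 held 12 copies, JAG1 and RBPJ 9 each, NOTCH2 and HEY1 7 each, NOTCH1 6, MAML1 2, JAG2 1 and HES1 0. The part of these copies in the ratios was not tested. Over all tested coding genes, 24.5% were lower, as were 23.2% of those with 5 or more copies and 19.6% of those with 10 or more.

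The letters printed in capitals above were also set beside the ratios of all tested genes. Tested genes with 2 or more TGGGAA matches in a promoter window numbered 327. Of them 21.4% were lower and 5.20% higher, with a median log2 ratio of −0.09. Over all tested genes, with or without a window, 23.6% were lower and 7.51% higher. Among tested genes with 1 or more matches, 5.56% were higher for CACNAG, 5.36% for CCAAT and 7.0% for TATATA. HES1 was at 0.96 and RBPJ at −0.66, and RBPJ minus HES1 was −1.62 (−1.80 to −1.43). The part of the matches in these ratios was not tested.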

How the data were processed

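Per the labels' protocols, TRIzol was used for RNA extraction and the KAPA mRNA HyperPrep kit for the libraries. The authors deposited unnormalized whole-number read counts for each gene. The tools were featureCounts 1.6.0, HISAT2 2.1.0 and Trimmomatic 0.38 with build GRCh38, per the submitters' processing notes. No strand setting, annotation release or handling of multiply mapped reads is stated there.

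Of 58884 IDs, 58611 matched GENCODE 29 (GRCh38), which gave coordinates and lengths, and the symbol table named 58472. No row without a gene name was present. The total was 18313827 counts in THZ1 and 18445831 in DMSO. TMM factors were computed on all genes (edgeR 4.0.16, R 4.3.3), giving effective sizes of 15873737 and 21281301. For the 95% interval of a ratio, the proportion of a gene's pooled counts that came from THZ1 was given an exact Clopper-Pearson interval and converted. Pairs of genes were compared by the exact conditional interval of the odds ratio. Level intervals are exact Poisson intervals, and share intervals are Clopper-Pearson. PCR reads lack molecular identifiers here and so are not independent molecules, and intervals and floors cover counting error only. The calls were tested on simulated counts drawn with counting error only, which cannot show how they fare under the spread between cultures.

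The scalings tried besides were DESeq2 1.42.0 size factors, total counts, upper quartile and the mitochondrially encoded mRNAs. Other settings were protein-coding genes only, count minimums of 1 and 100, an interval bound beyond 2-fold, 5 added counts and thinning to equal totals. TMM on the tested genes alone was added after seeing the data. The genes and lists were chosen with earlier results of these data known. The text names all 10 genes, further ligands, receptors and HES or HEY genes, and up to 4 called genes per role with 100 or more counts in a library. Tables were made in Python 3.11.15 with scipy 1.17.1, numpy 2.4.6 and pandas 2.3.3, and plots with matplotlib 3.10.9.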

Additional observations from a re-analysis of the deposited data

How the results depend on the processing

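The 4 genes called lower, JAG1, MAML2, NOTCH1 and MAML1, were each below 0 under every alternative run, and all 4 were called lower except with the upper quartile. All ratios shift by −0.41 with total counts, −1.59 against the mitochondrially encoded mRNAs, 0.54 with the upper quartile and 0.10 with TMM on the tested genes. Calls over all genes were 2942 lower and 936 higher, so of the called genes alone 24.1% were higher and 75.9% lower. That split of the called genes was 7.95% and 92.0% with total counts and 0.872% and 99.1% against the mitochondrially encoded mRNAs. With the upper quartile it was 63.3% and 36.7%. With total counts the median of the tested Notch genes was −1.36, 0 further pathway genes were higher and 368 of all genes were higher. With the upper quartile 1 Notch gene was lower (JAG1) and 1 higher (HES1), their median was −0.41, 8 further pathway genes were higher, and 1761 of all genes were lower and 3038 higher. Against the mitochondrially encoded mRNAs 7 Notch genes and 39 further genes were lower, 0 further genes were higher, the median was −2.54, and 10000 of all genes were lower and 88 higher. A count minimum of 1 made HEY1 the 1 higher Notch gene, moved the median to −0.73 and gave 1846 higher genes, and a minimum of 100 gave 607. An interval bound beyond 2-fold left 0 further pathway genes and 498 of all genes higher. HES1 was the 1 higher Notch gene with protein-coding genes only and with TMM on the tested genes, which also gave 2 higher further genes (KAT2B and CDK19). DESeq2 size factors, 5 added counts and thinning changed no call among the Notch genes. No paired analysis was possible because there is 1 library per group, and no library could be left out. The depth leaves NOTCH3 and HEY1 unresolved.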
